A study of Panicum virgatum with 8 samples.

Results

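The miR162 and miR168 families of switchgrass (Panicum virgatum AP13, whose tetraploid genome consists of a K and an N subgenome) were represented by 4 of the 210 miRNA precursors in the deposited table, 2 precursors for each family. They were taken as the precursors whose more abundant strand has a miRBase name containing miR162 or miR168, with each precursor counted once. Each family had a single miRNA sequence, named bra-miR162-3p after its match in Brassica rapa and ata-miR168-5p after its match in Aegilops tauschii. Small RNA was sequenced from 8 libraries, 1 library per condition, all from greenhouse-grown AP13 plants. Of the stress libraries, 1 came from plants kept at 4 °C over 24 h, 1 from plants left dry during 11 days, and 1 from plants that were watered again after this drought and harvested on day 12. Cold and drought each had a control library, and the remaining libraries were of leaf, of stem and of panicle. The labels give above-ground tissue for the 5 libraries of stresses and their controls, whereas the methods of the study name upper leaf blades. The table names no library and gives 1 whole-number abundance per named strand, so the 8 libraries are taken as pooled. No abundance has a replicate error, and conditions cannot be compared. The study gives read totals for each library, but because the table names neither a unit nor a library, the number of reads behind a value is not known.

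Plant miRNAs are cut from a hairpin precursor by DICER-LIKE1, which releases a duplex of the miRNA and its partner strand, the miRNA*. The miRNA is then loaded into an ARGONAUTE protein, mainly ARGONAUTE1, and guides it to complementary mRNAs. In Arabidopsis, miR162 targets the mRNA of DICER-LIKE1 and miR168 targets that of ARGONAUTE1. The families therefore act back on machinery that makes and uses miRNAs. Their targets were not measured in the table analysed here.

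The mature sequences are shown first because the comparison of the families starts from them. They are written 5′ to 3′ as DNA, as in the deposited table, with the seed (bases 2 to 8) in capitals.
bra-miR162-3p: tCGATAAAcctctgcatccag
ata-miR168-5p: tCGCTTGGtgcagatcgggac
Both are 21 nt long and start with a T, which is a U in the RNA. Of the 55 miRNA sequences with a precursor within the limits on length and pairing taken from the study's methods, 43 are of this length, 45 start with T and 6 start with TCG. The thresholds applied were 20 to 24 nt for the miRNA, under 300 nt for the precursor and no more than 5 mismatch positions, with 3 nt as the limit for asymmetric bulges, and all 4 precursors of miR162 and miR168 met them. The other criteria of the study, on minimum abundance, genome hits, strand bias and abundance bias, were not applied, so the 55 sequences are a wider set than the study's own list. The sequences of miR162 and miR168 share 5 of 21 positions when aligned from the 5′ end, and 3 of these are in the seed. No other miRNA sequence of the 55 has the seed of either. G and C make up 10 of 21 bases in miR162 and 13 of 21 in miR168.

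The miR168 strands are the same as those of Brachypodium distachyon, the model grass of the study, at all 21 positions of both the miRNA and the miRNA*. The miR162 sequence differs from the Brachypodium one at 1 of 21 positions, by G20A (the Brachypodium base, the position from the 5′ end, then the switchgrass base). The differing base is in capitals.
bra-miR162-3p: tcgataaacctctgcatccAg
Brachypodium miR162: tcgataaacctctgcatccGg
The difference lies outside the seed. The Brassica rapa name is the first word of the miRBase name listed for the sequence. Whether the sequence also matches entries of other species was not examined here.

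The abundance of ata-miR168-5p was 42436 and that of bra-miR162-3p was 874, in the unnamed unit of the table. The miR168 value was therefore 48.6 times the miR162 value. Among the 59 distinct miRNA sequences of the whole table, ata-miR168-5p was in place 2 and bra-miR162-3p in place 16. Both were above the median of 120, with miR168 at 354 times this median and miR162 at 7.28 times. Of the abundance summed over the 59 sequences, miR168 held 15.1% and miR162 held 0.311%.

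The neighbours of miR168 in the order of abundance were far from it. The sequence above, ata-miR166d-3p, was listed at 185355, which is 4.37 times as much, and miR168 was 4.18 times the sequence below, bdi-miR319b-3p at 10152. Those of miR162 were nearer. The sequence above was ata-miR156e-5p at 1289, 1.47 times as much, and the one below was ata-miR172b-3p at 873, a difference of 1 from miR162 that cannot be told apart without replicates. Both families reached these values from few precursors. The table has 6 families with 2 precursors, and their summed abundances ran from 20 to 42436 with a median of 594. In this group miR168 was the highest and miR162 the second, followed by miR529 at 851, miR394 at 337, miR398 at 120 and miR535 at 20. The miR166 family, the only one above miR168 by summed abundance, was listed at 193400 from 19 precursors.

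**Figure D1:**
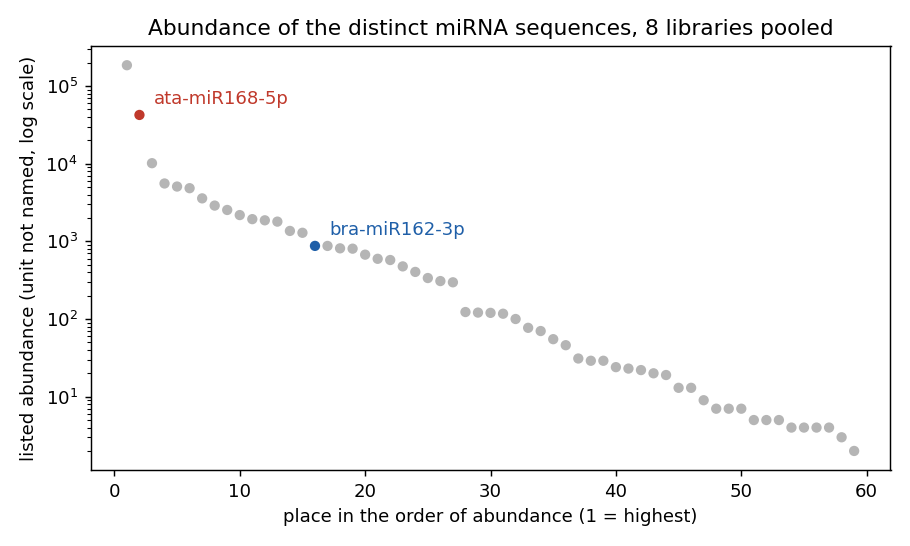
Listed abundance (vertical axis, log scale, unit not named) of the 59 distinct miRNA sequences in order of abundance, 1 point per sequence, with the 8 libraries pooled and no error available. The red point, ata-miR168-5p at 42436, stands apart from the points on either side, and the blue point, bra-miR162-3p at 874, lies below a point at 1289 and next to one at 873.

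The families also differed in the strand paired with the miRNA. The duplex strands are shown because only the miRNA* of miR168 has a listed abundance above 0 and because the duplexes are mismatched at different places. Bases at mismatched positions are in capitals in both strands.
miR162 miRNA: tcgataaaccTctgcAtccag
miR162 miRNA*: gggCgcagTggtttatcgatc
miR168 miRNA: tcgcttggtgcagATcgggac
miR168 miRNA*: cccgCCttgcaccaagtgaat
The miRNA* of miR168 carries the name ata-miR168-3p and was listed at 2021 for both precursors. This was 10.6 times the highest listed miRNA* abundance of any other precursor within the thresholds, which was 190. The comparison covers listed values only. The miRNA* was listed at 0 for 96 of the 185 precursors, and a 0 does not show that a strand was not sequenced. With 1 value for each of the 29 miRNA sequences that have a miRNA* of at least 1, it made up 69.6% of the summed miRNA* abundance. The median of these 29 values was 8. As an abundance in its own right, 2021 was 2.31 times that of the miR162 miRNA, and only 10 of the 59 miRNA sequences were above it.

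Among the sequences with a listed miRNA* above 0, the ratio of miRNA to miRNA* was near the median for miR168. It was 21, with the miRNA* at 4.55% of the 2 strands together. Over the 29 sequences the ratio ran from 1 to 4413 with a median of 23.0, and 13 were below miR168 and 15 above it. The strand ratio of miR168 was thus in the middle of the range of these 29 sequences. The 26 sequences with every miRNA* at 0 have no ratio and are outside this comparison. A high miRNA value did not always go with a high miRNA* value. The most abundant sequence, ata-miR166d-3p at 185355, had a highest miRNA* of 42.

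The miRNA* of miR162 had no miRBase name and was listed at 0 for both precursors, so no ratio can be given. A value of 0 was common, being listed for 96 of the 185 precursors within the thresholds (51.9%). At 26 miRNA sequences the miRNA* was 0 for each of their precursors, and 3 of these were more abundant than miR162. In the whole table a miRNA* above 0 and a second listing of the precursor, with the strands exchanged, always went together. All 92 precursors listed by both arms had a miRNA* above 0, and all 118 listed by 1 arm had it at 0. The miR168 precursors belong to the former and the miR162 precursors to the latter. A 0 here therefore does not show that the miR162* strand was not sequenced.

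**Figure D2:**
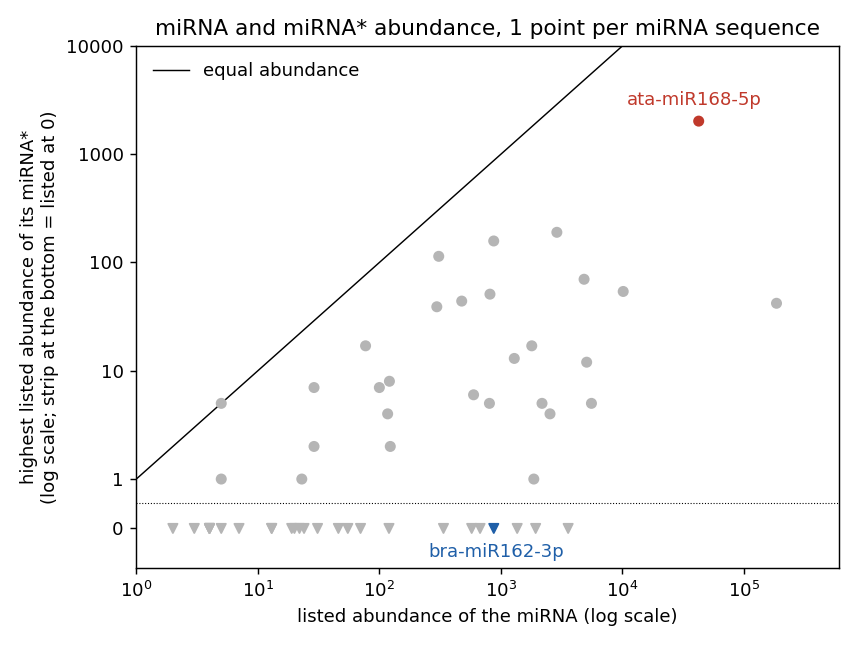
Listed abundance of each miRNA sequence (horizontal axis, log scale) against the highest listed abundance of its miRNA* (vertical axis, log scale), for the 55 sequences within the thresholds, with triangles in the bottom strip for the 26 whose miRNA* is listed at 0 and a line for equal abundance. The red point, miR168, has a miRNA* of 2021, above the 190 of the next, while the blue triangle, miR162 at 874, is in the strip at 0.

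The mature strand lay on opposite arms of the hairpin in the families. It was on the 5′ arm of both miR168 precursors and on the 3′ arm of both miR162 precursors, as their names give it. Among the 185 precursors within the thresholds the miRNA was on the 5′ arm in 99 and on the 3′ arm in 86. The hairpins also differed in shape. In miR168 the arms were separated by 26 nt in both copies, and only 3 of the 185 precursors had a shorter distance, the median being 59 nt. In miR162 the distance was 82 nt in the K copy and 86 nt in the N copy, with 48 and 43 precursors above these values.

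By the listed hairpin ends, the miR168 duplex lay further from the ends of its hairpin. In the most stable structure, the 5′ arm strand started 18 nt after the start of the hairpin and the 3′ arm strand ended 16 nt before its end, against 11 nt and 9 nt in miR162. In the second structure of miR168 the distances were 17 nt and 10 nt in K and 12 nt and 10 nt in N. Those of miR162 stayed at 11 nt and 9 nt, so the families differed less there. The listed miR162 hairpins start at position 1 of their precursors and end at 144 of 146 nt in K and 148 of 150 nt in N. Where the precursor was cut therefore limits their distances. The miR168 hairpins start and end further inside their precursors, so the contrast is not between like quantities. The precursors of miR168 were both 118 nt long, and those of miR162 were 146 nt in K and 150 nt in N. The net difference of 4 nt between the miR162 copies lay between the arms. The distances from the duplex to both ends of the hairpin were the same in the copies. The duplex spans positions 12 to 135 of 146 nt in K and 12 to 139 of 150 nt in N. The precursors were thus cut with equal margins around it, so their length difference could lie only between the arms. Both hairpins start at position 1, which also fixes the distance to their 5′ end.

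**Figure D3:**
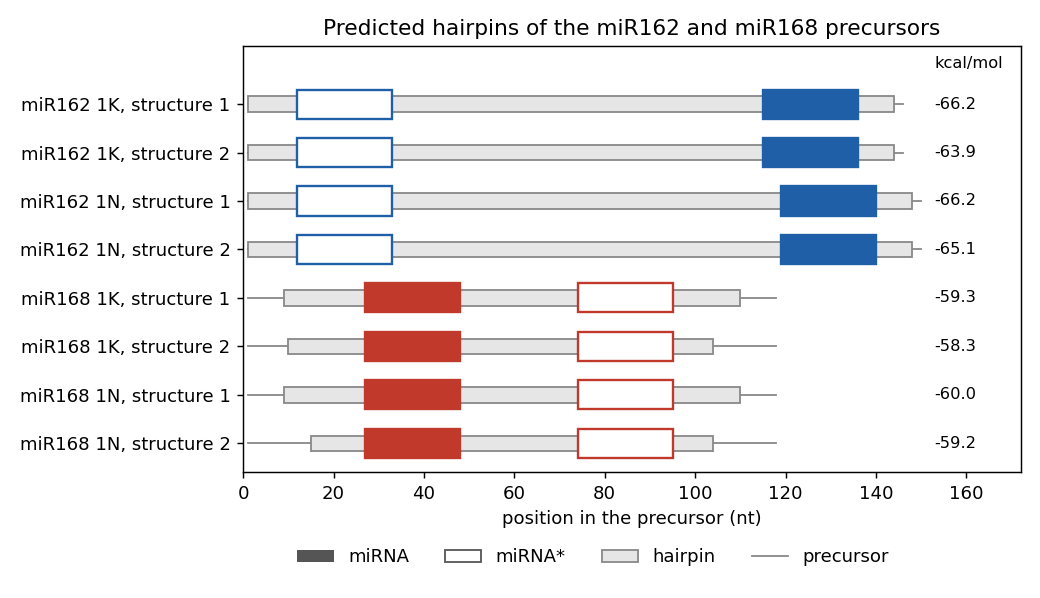
The 8 predicted structures of the 4 precursors drawn to scale along the precursor (horizontal axis, nt), with the hairpin as a grey bar, the miRNA as a filled box, the miRNA* as an open box and the free energy at the right. The filled boxes are on the left in miR168 (red) and on the right in miR162 (blue), and the boxes are 26 nt apart in miR168 and 82 or 86 nt apart in miR162.

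In the deposited table the miR162 duplex had 2 mismatch positions and the miR168 duplex 4, in both copies of each, with no nucleotide in an asymmetric bulge. The most mismatches in a row were 1 in miR162 and 2 in miR168. Of the 185 precursors, 64 had 2 mismatch positions, including those of miR162, and 17 had fewer. For 4 positions the count was 26, including those of miR168, and 14 had more.

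Aligned without gaps and with a 2 nt overhang at each 3′ end, the duplexes were closer to each other than these values. Of 19 opposed positions, miR162 had 16 Watson-Crick pairs, 1 G:U wobble and 2 mismatches, and miR168 had 15 Watson-Crick pairs, 2 wobbles and 2 mismatches. The mismatches of miR162 were apart, at positions 11 and 16 of the miRNA, and those of miR168 were adjacent, at 14 and 15. No mismatch fell in the seed of either, and miR168 had 1 wobble there, at position 3. The mismatches and wobbles of miR168 add up to the 4 positions listed in the table, whereas for miR162 the mismatches alone equal the 2 listed. In both duplexes a wobble lies next to a mismatch, at position 13 in miR168 and at position 17 in miR162. The listed runs of mismatches, 2 in miR168 and 1 in miR162, do not include these wobbles. The equal totals for miR168 therefore do not show that the table counts wobbles, and how its 4 positions arise was not settled here.

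The free energy of the isolated duplex, computed with RNAduplex, was -29.2 kcal/mol for miR168 and -26.6 kcal/mol for miR162. Over the 116 distinct pairs of miRNA and miRNA* within the thresholds the lowest energy was -36.5 and the highest -18.8 kcal/mol, and the median of -27.8 kcal/mol fell between those of the families. A lower energy was found in 36 pairs for miR168 and in 77 pairs for miR162. The duplex with more listed mismatch positions was thus the more stable of the pair.

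**Figure D4:**
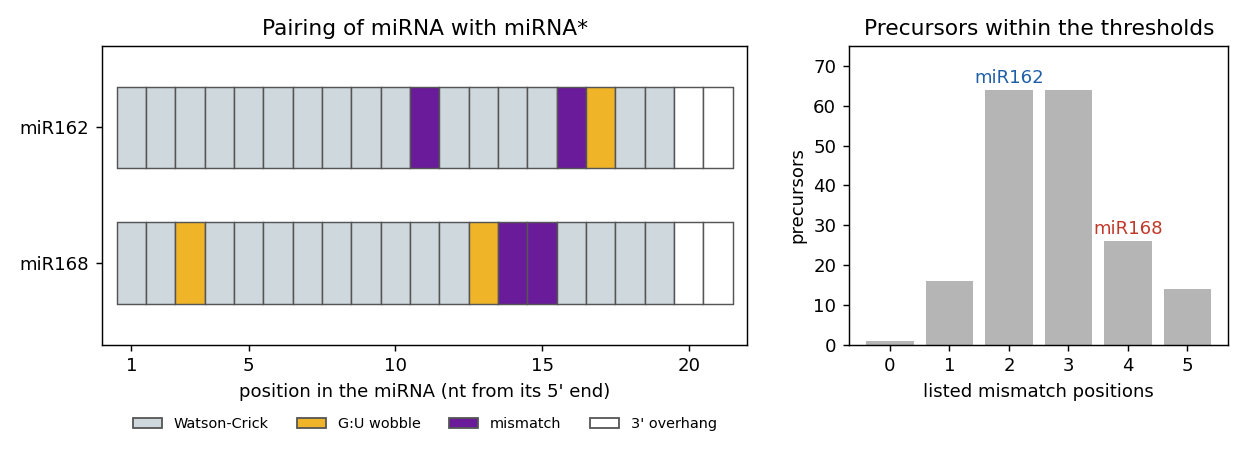
Left, pairing class at each position of the miRNA (horizontal axis, nt from the 5′ end) for the duplexes of miR162 and miR168, and right, the number of precursors within the thresholds (vertical axis) by listed mismatch positions (horizontal axis). Mismatches are at positions 11 and 16 in miR162 and at 14 and 15 in miR168, and the bars that hold the families count 64 and 26 precursors.

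Each precursor was listed with 2 structures of the more abundant strand, as were 134 of the 210 precursors, and 2 was the most for any. For miR162 the hairpin energies were -66.2 and -63.9 kcal/mol in the K copy and -66.2 and -65.1 kcal/mol in the N copy. The structures of a copy had the same pairing counts and the same ends, and all 4 were called miRNA candidate by the authors. For miR168 the energies were -59.3 and -58.3 kcal/mol in the K copy and -60.0 and -59.2 kcal/mol in the N copy. The gap between the structures was largest in the K copy of miR162, at 2.26 kcal/mol, and smallest in the N copy of miR168, at 0.858 kcal/mol. All 4 gaps were above the median of 0.646 kcal/mol over the 134 precursors.

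Of the 4 precursors, the call differed between the structures only in the K copy of miR168. There the second structure had 5 mismatch positions and 1 nt in an asymmetric bulge, and its call was miRNA-like in place of miRNA candidate. In the N copy the second structure kept 4 mismatch positions, no bulge and the call miRNA candidate, although its hairpin was shorter by its listed length, 89 against 101 nt. Of the 210 precursors, 39 (18.6%) had at least 1 structure of the more abundant strand called miRNA-like.

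The same K structure, when listed with the strands exchanged, gives a longer form of the miR168 strand. It has a further base at the 5′ end, shown in capitals.
miR168-5p, 22 nt form: Ctcgcttggtgcagatcgggac
This form was given in 1 of the 8 listings that name ata-miR168-5p, in which each structure appears once per arm. It was listed with the same abundance of 42436 as the 21 nt form. Of 95 strand names in the table, 15 had more than 1 sequence and none had more than 1 abundance. The abundance thus follows the name and not the printed sequence, and 42436 is not a measurement of the 22 nt form. Nor can it be assigned to the 21 nt form alone, because the table does not show which form gave the reads.

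All 4 precursors lay on chromosome 1, in coordinates of version 4.1 of the genome. Those of miR168 were on the minus strand, at Chr01K from 3562219 to 3562336 and at Chr01N from 3202845 to 3202962. Those of miR162 were on the plus strand, at Chr01K from 61603305 to 61603450 and at Chr01N from 73283890 to 73284039. The miR168 precursor came first of the 22 precursors listed on Chr01K and first of the 33 on Chr01N, and the miR162 precursor was in place 14 and place 13. Their starts were 58.0 Mb apart in K and 70.1 Mb apart in N.

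The next precursor along the chromosome was of the same miRNA in both copies. After miR168 came bdi-miR156j, listed at an abundance of 4, which started 598 kb further in K and 910 kb further in N. It ran from 4159842 to 4160266 in K and from 4113314 to 4113761 in N. These bdi-miR156j precursors were thus longer than the limit on precursor length applied above. After miR162 came ata-miR156e-5p, 575 kb further in K and 457 kb further in N. On the other side of miR162 the copies differed, with ata-miR166d-3p before it in K and ssp-miR827 in N. These neighbours were chosen after their positions were seen. The genes that hold or flank the precursors were not analysed here, so exons, introns and UTRs cannot be given.

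The K and N copies of each family carried the same miRNA and the same miRNA*, so the abundances of 42436 and 874 are each shared by 2 precursors and cannot be divided between the subgenomes. The hairpin energy of miR168 was -59.3 kcal/mol in K and -60.0 kcal/mol in N, a difference, K minus N, of 0.74 kcal/mol. For miR162 the difference was -0.012 kcal/mol, with both copies at -66.2 kcal/mol. The table has 32 pairs with the same strands and 1 precursor on each copy of a chromosome, 7 of them on chromosome 1. Their differences ran from -16.9 to 17.1 kcal/mol and the median size was 2.67 kcal/mol. No pair had a smaller difference than miR162, and 5 had a smaller one than miR168. These values are of the most stable structures. In the second structures miR162 had -63.9 kcal/mol in K and -65.1 kcal/mol in N, so its near equality depends on the structure used. There miR168 had -58.3 kcal/mol in K and -59.2 kcal/mol in N.

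The K and N precursors of miR168 had the same length, as in 9 of the 32 pairs, whereas those of miR162 differed by 4 nt. Both families kept their strand between K and N, as did 25 of the 32 pairs. A family has 1 pair of copies, so no test of these differences was possible. All 4 hairpins were less stable than the median precursor of -70.4 kcal/mol, with 109 and 110 of the 185 precursors below the K and N copies of miR162 and 149 and 145 below those of miR168. Per 100 nt of hairpin the order of the families turned. The miR168 hairpins had -58.7 kcal/mol in K and -59.4 kcal/mol in N, lower than the median of -54.2 kcal/mol, and the miR162 hairpins had -46.3 and -45.0 kcal/mol, higher than it.

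**Figure D5:**
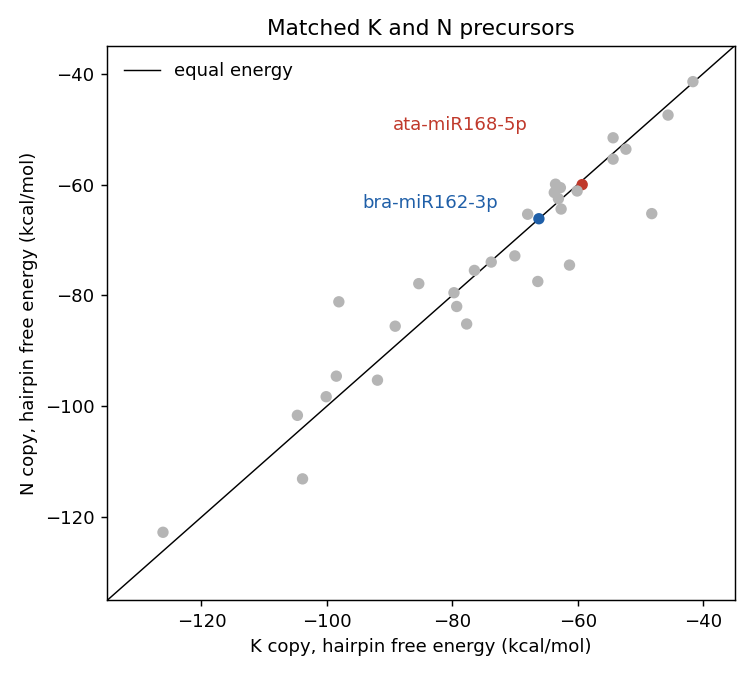
Hairpin free energy of the K copy (horizontal axis, kcal/mol) against the N copy (vertical axis, kcal/mol) for the 32 matched pairs of precursors, 1 point per pair, with a line for equal energy. Each energy is of the most stable structure within the thresholds. The blue point, miR162, lies on the line (-0.012 kcal/mol, K minus N) and the red point, miR168, close to it (0.74 kcal/mol).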

How the data were processed

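The authors trimmed adapters, mapped the reads to version 4.1 of the switchgrass genome with Bowtie (0.12.7 in the submitters' processing notes), kept sequences that matched miRBase 21, evaluated pairing with modified miREAP and folded precursors with UNAFold. The abundance that the authors deposited is treated as a score, since the table names neither its unit nor a library. Strand bias, abundance bias and genome hits could not be recomputed, and the minimum abundance in TP10M was not applied. The read totals that the study gives per library cannot be tied to values of an unnamed unit, so no interval is given.

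A precursor was counted once, by its more abundant strand, with its most stable structure within the thresholds on length, mismatches and bulges. The duplex was aligned without gaps with 2 nt overhangs, and its energy was computed with RNAduplex 2.7.2. Sequences of Brachypodium were read from the paper's supplement. The limits on mismatches, bulges and precursor length, the choice of the lowest energy and the alignment were tested on simulated data. The choice of the more abundant strand, the limits on miRNA length and the rule on names were not tested in this way. No significance test was run, because the values are pooled and each family has 1 pair of copies. Only the families, their neighbours in abundance and families with as many precursors are named, with exceptions stated. The families and the comparisons were chosen with earlier results of these data known. Python 3.11.15, numpy 2.4.6, pandas 2.3.3 and matplotlib 3.10.9 were used.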

Additional observations from a re-analysis of the deposited data

How the results depend on the processing

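Of 22 values recomputed under an alternative, 16 stayed the same and 6 moved, none with a change of direction. Numbers of structures and places in the order were taken as the same within 1.5 times, and ratios, energies and mismatch positions when equal to 2 significant digits. The place of miR162 was 12 with families ranked by summed abundance, against 16. With miRNA and miRNA* summed, miR168 was 50.9 times miR162. As a median over all listed structures, the K copy of miR168 had 4.5 mismatch positions. With either arm as the miRNA, both the K and the N copy of miR168 had 4 listings, because each structure is listed once per arm. Per 100 nt of hairpin, the K minus N energy was 0.73 kcal/mol for miR168 and -1.27 kcal/mol for miR162, the latter because its N hairpin is longer at an almost equal energy. The other changes come from what each alternative adds or averages. No paired analysis was possible because no condition has a value of its own.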
